A study of Rattus norvegicus with 16 samples.

Results

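The genes described here are 46 genes of ribosome biogenesis and RNA polymerase I, of 13215 genes with a row of their own on the array. They were chosen by symbol: names that begin with Nop, Utp, Rrp or Nol and a digit, with Polr1, or have the form Noc2l, and 12 further genes, of which Bop1, Dkc1 and Gnl2 had no row of their own and were not analysed here. The rule matched 47 rows, because Nol4l has 2, and the brighter row stands for the gene. Liver RNA of 16 male Sprague Dawley rats, depleted of ribosomal RNA, was hybridised to Affymetrix Rat Exon 1.0 ST arrays, with 1 liver on each array. The 4 groups of 4 are rats that were fed, rats taken in phase 2 of a fast (P2), rats taken in phase 3 (P3), and rats that had reached phase 3 before 2 days of re-feeding (P3r2). No group carries a genetic change. The sources used here do not give the animals' age or how long the fasts were.

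Ribosomes are built in the nucleolus. RNA polymerase I copies the ribosomal DNA into a long precursor RNA, small nucleolar RNPs (snoRNPs) methylate it and convert some of its uridines to pseudouridine, and a large set of factors, among them the small subunit processome around the U3 snoRNA, fold and cut it while ribosomal proteins bind. The work takes up a large share of a growing cell's energy, and MYC and the TOR kinase are known to drive it and nutrient shortage to hold it back. In phase 2 a long fast burns mostly body fat, and later, as fat stores run low, it turns to body protein (phase 3). The values below are mRNA signals on a log2 scale, so 1 unit is a 2-fold difference. A change is a log2 fold change ± its standard error, and "called" means a limma adjusted p below 0.05 over the 18884 rows tested.

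Of the 46 genes, 42 act in ribosome synthesis or drive it. The other 4 only share the naming pattern: Nol3 is a repressor of apoptosis, Nol4 and Nol4l are nuclear proteins with no settled role in ribosome synthesis, and Polr1has is an RNA antisense to Polr1h. The median signal of the 46 was 6.33, against 4.39 over all rows, and 37 had a mean above 5. Nop2 (mean 3.56 in fed livers), Nop56 (2.61), Nop10 (3.69), Nop16 (3.81), Utp23 (3.38), Nol4 (3.08) and Polr1has (3.55) were the dim ones, with means below 4 over all arrays. No detection call was used here, so a dim row may hold little signal of its gene.

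The arrays were alike in median (4.34 to 4.46) but not in spread, and fed 2, P2 4 and P3 3 had the lowest standard deviations (2.12, 2.14 and 2.18). Fed 2 read lowest of its group in 34 of the 46 genes and P2 4 in 27, while P3 4 read highest of its group in 29 and P3 2 lowest in 29. Counts without fed 2, P2 4 and P3 3 are given beside those of the 46 genes and of the lists of related genes at phase 3. Hepatocyte markers were bright: the log2 of the summed signal of 7 of 9 listed markers was 15.40 to 15.70 in fed livers and 15.28 to 15.40 in P3. In P3 against fed, 3 of the 7 were called lower, Apoa2 the most (-1.57 ± 0.33), and 0 higher (4 lower and 0 higher at an unadjusted p below 0.05). In the same comparison, 0 of 7 macrophage and 0 of 6 other leukocyte markers were called by limma (1 and 1 lower and 0 higher at an unadjusted p below 0.05), and 3 of 6 stellate cell and fibroblast markers were called lower. Markers of dividing cells were called lower in 7 of 10 cases and higher in 1, Pcna. Of all rows, 8.07% were called lower and 11.3% higher in this comparison. Of the 10 dividing cell markers 5 were dim, with means below 4 over all arrays, as were 2 of the 6 leukocyte markers. The summed signal of the dividing cell markers was 7.98 to 8.40 in fed livers and 8.23 to 8.69 in P3. The part of cell mixture in the results was not tested, and in bulk tissue fewer cells of a type and less RNA per cell cannot be told apart.

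At phase 3 of fasting, the array signal of most of the ribosome biogenesis set was higher than in the fed liver. The arrays were alike in median, so a signal is relative to the other RNA on its array. Amounts of RNA per liver were not measured. Of the 46 genes, 35 were called higher and 1 lower, where 11.3% of all rows were called higher and 8.07% lower. By at least 2-fold, 30 were called higher, against 4.52% of all rows. The median change was 1.37, against 0.03 over all rows. In 34 genes all 4 P3 livers lay above all 4 fed livers, which held for 11.5% of all rows. Among genes with a mean signal above 5 34 of 37 were called higher, against 1831 of 7743 rows as bright, and the smallest change was 0.46. That mean is over all arrays, P3 included, so the filter is not independent of a rise at phase 3. Nol8 (4.37 in fed, 4.43 in P2 and 4.76 in P3r2 livers) passed it only through P3 (6.75). Every one of the 35 has a known role in ribosome synthesis or drives it, and none of the 4 that share only the naming pattern was called higher or lower (0 at an unadjusted p below 0.05). These 4 all had means below 5 (Nol3 4.83, Nol4l 4.79, Polr1has 3.67, Nol4 3.11), so role and low signal cannot be told apart here. Of the genes with a role and a mean below 5, Utp23 was called higher and Nop2 lower. Nop56, Nop10 and Nop16 were not called. Without fed 2, P2 4 and P3 3, 35 were called higher and 1 lower, with a median change of 1.29.

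**Figure D1:**
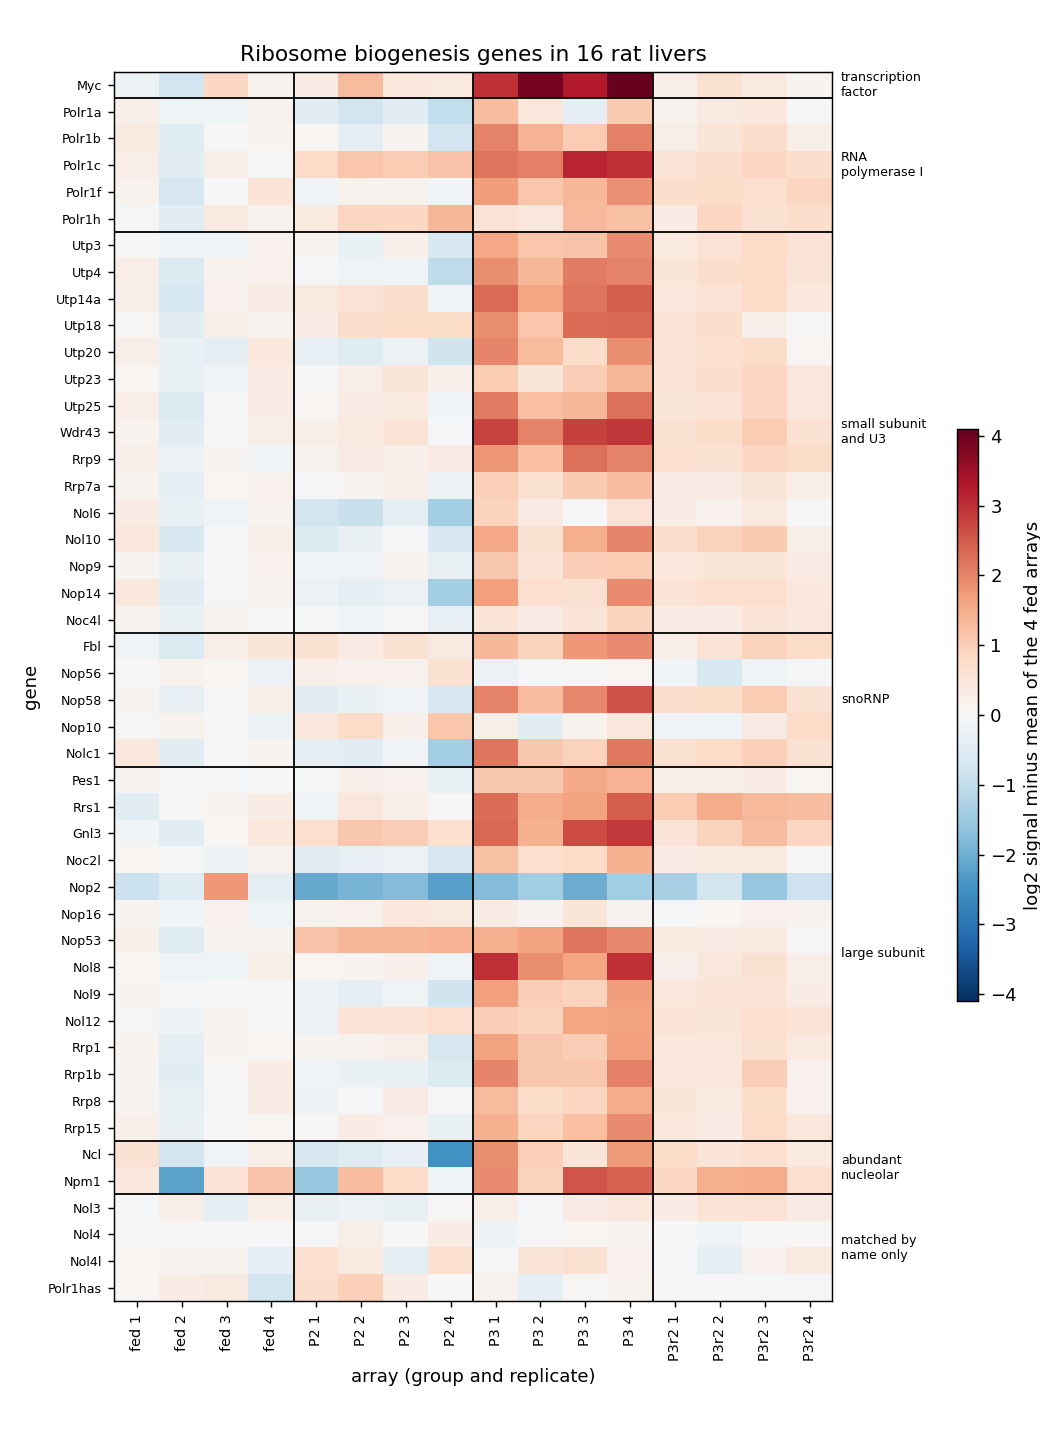
Log2 signal of the 46 genes (vertical axis, grouped by role) in the 16 arrays (horizontal axis, by group and replicate), as the difference from the mean of the 4 fed arrays. The P3 columns are red for most genes from Myc to Npm1, P2 is mixed, and the bottom 4 genes, which share only the naming pattern, stay pale in P3.

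The P3 mean was the highest of the 4 groups in 38 of the 46 genes, against 28.2% of all rows. The fed mean was the lowest in 23 and the P2 mean in 20, against 25.7% and 24.7% of all rows. The P3 mean was the lowest in 0, against 25.3%. P3r2 was highest in 1 gene, Nol3, and lowest in 3, against 20.1% and 24.3% of all rows.

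Some promoters of these genes hold the E-box CACGTG, which MYC can bind together with its partner MAX and which reads the same on both strands. Whether MYC or another factor binds there was not tested. Of the 46 genes, 41 had an entry among RefSeq promoters of assembly GRCr8, which run from 250 bases before to 50 bases after the gene's start. CACGTG stood in 13 of the 41 (31.7%), against 8.1% of 10844 promoters of genes on the array and 6.7% of all 27457 promoters. The binding motif of ETS factors, CCGGAAG on either strand, stood in 39.0%, against 12.5% of genes on the array. These sets of promoters were not matched for base composition. The 4 members with an E-box that rose most at phase 3 and Polr1c, which rose more than they did and has no CACGTG in its window, are shown here, 5′ to 3′ on the gene's strand, with the E-box in capitals.
Gnl3, chr16:6219733-6220032, minus strand: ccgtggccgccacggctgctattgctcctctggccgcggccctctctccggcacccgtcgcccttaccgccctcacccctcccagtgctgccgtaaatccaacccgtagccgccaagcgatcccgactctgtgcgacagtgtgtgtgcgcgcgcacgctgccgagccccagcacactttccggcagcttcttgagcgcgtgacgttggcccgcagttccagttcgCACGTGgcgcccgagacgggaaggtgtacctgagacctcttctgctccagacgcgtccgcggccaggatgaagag
Utp18, chr10:79335708-79336007, minus strand: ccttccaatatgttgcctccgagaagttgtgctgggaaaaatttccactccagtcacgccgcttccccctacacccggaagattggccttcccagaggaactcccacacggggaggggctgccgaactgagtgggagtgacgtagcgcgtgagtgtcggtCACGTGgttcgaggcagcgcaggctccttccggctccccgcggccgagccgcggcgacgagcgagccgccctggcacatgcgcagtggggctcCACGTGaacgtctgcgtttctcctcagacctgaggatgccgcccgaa
Utp4, chr19:51701991-51702290, plus strand: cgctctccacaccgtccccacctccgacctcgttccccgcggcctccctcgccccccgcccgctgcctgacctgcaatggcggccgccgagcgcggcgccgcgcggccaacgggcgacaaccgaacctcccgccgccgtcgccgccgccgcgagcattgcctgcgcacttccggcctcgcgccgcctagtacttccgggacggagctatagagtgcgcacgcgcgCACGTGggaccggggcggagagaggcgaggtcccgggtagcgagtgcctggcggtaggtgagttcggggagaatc
Utp25, chr13:107180312-107180611, minus strand: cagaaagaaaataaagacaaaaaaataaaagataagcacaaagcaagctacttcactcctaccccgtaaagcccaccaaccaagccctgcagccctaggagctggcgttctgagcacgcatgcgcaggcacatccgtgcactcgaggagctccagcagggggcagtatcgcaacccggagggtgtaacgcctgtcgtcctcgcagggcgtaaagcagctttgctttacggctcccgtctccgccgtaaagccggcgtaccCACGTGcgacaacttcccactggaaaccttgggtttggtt
Polr1c, chr9:22233068-22233367, plus strand: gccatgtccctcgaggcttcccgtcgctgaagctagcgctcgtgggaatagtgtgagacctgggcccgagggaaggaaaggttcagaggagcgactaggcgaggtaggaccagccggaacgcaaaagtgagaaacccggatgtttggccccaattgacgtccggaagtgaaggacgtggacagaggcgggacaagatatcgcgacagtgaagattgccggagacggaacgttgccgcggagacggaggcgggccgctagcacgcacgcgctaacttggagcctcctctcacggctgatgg

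The E-box of Gnl3 and that of Utp4 both begin 25 bases before the start. Utp18 has 2, which begin 90 bases before and 3 bases after it, and that of Utp25 begins 10 bases after it. The 13 genes with CACGTG had a median P3 change of 1.38 (range -1.66 to 2.35) and the 28 without it 1.32 (range -0.07 to 2.59). A match of letters is no evidence of binding, and a window without the letters says nothing about the factor.

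Myc, a transcription factor known to drive ribosome synthesis, had the largest change of the set. Its signal was 4.78, 4.22, 5.83 and 5.12 in the 4 fed livers and 5.29, 6.30, 5.42 and 5.38 at phase 2. At phase 3 it was 8.0, 8.92, 8.25 and 9.06, and after re-feeding 5.27, 5.62, 5.39 and 5.09. Every P3 liver lay above every other liver, and the re-fed livers lay within the range of the fed ones. The P3 change was 3.57 ± 0.32 (adjusted p = 1.1e-06), the P2 change 0.61 ± 0.32 was not called (adjusted p = 0.221), and from P3 to P3r2 Myc fell by 3.21 ± 0.32 (adjusted p = 3.07e-06).

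The subunits of RNA polymerase I did not move as 1 block. Of 5 measured, 4 rose at phase 3. Polr1c, a subunit shared with RNA polymerase III, read 6.86, 6.13, 6.85 and 6.57 in fed livers, 7.38, 7.73, 7.63 and 7.77 at phase 2 and 8.80, 8.68, 9.71 and 9.60 at phase 3. These 3 groups do not overlap: it was already higher at phase 2 (1.02 ± 0.22, adjusted p = 0.00832) and higher again at phase 3 (2.59 ± 0.22 against fed, 1.57 ± 0.22 against P2). Polr1b, the second largest subunit, read 5.82, 4.94, 5.47 and 5.57 in fed livers and 7.49, 6.87, 6.49 and 7.52 at phase 3. Here the rise lay in phase 3 (1.64 ± 0.26, adjusted p = 0.000201), with -0.24 ± 0.26 at phase 2.

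Polr1a, the largest subunit, which carries the active site, read 6.29, 5.91, 5.92 and 6.24 in fed livers, 5.65, 5.33, 5.63 and 5.08 at phase 2 and 7.34, 6.57, 5.71 and 7.16 at phase 3. P3 3 lay below every fed liver and the other 3 P3 livers above all of them. Polr1a was not called against fed (0.60 ± 0.27, adjusted p = 0.154), and it was called higher than at phase 2 (1.27 ± 0.27, adjusted p = 0.00271). Without P3 3 its change against fed was 0.93 (adjusted p = 0.00282), and without the 3 arrays of narrow spread 0.87 (adjusted p = 0.00566). Polr1f, a subunit of the stalk, rose by 1.52 ± 0.21 at phase 3 and stood at 0.00 ± 0.21 at phase 2. Polr1h, a small subunit that acts in RNA cleavage, was higher in both phases by about the same step (0.87 ± 0.23 at phase 2 and 0.89 ± 0.23 at phase 3). Without the 3 arrays of narrow spread neither was called (0.56, adjusted p = 0.104, and 0.61, adjusted p = 0.0638). The P2 call was also lost without fed 1, fed 2, P2 2 or P2 4.

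**Figure D2:**
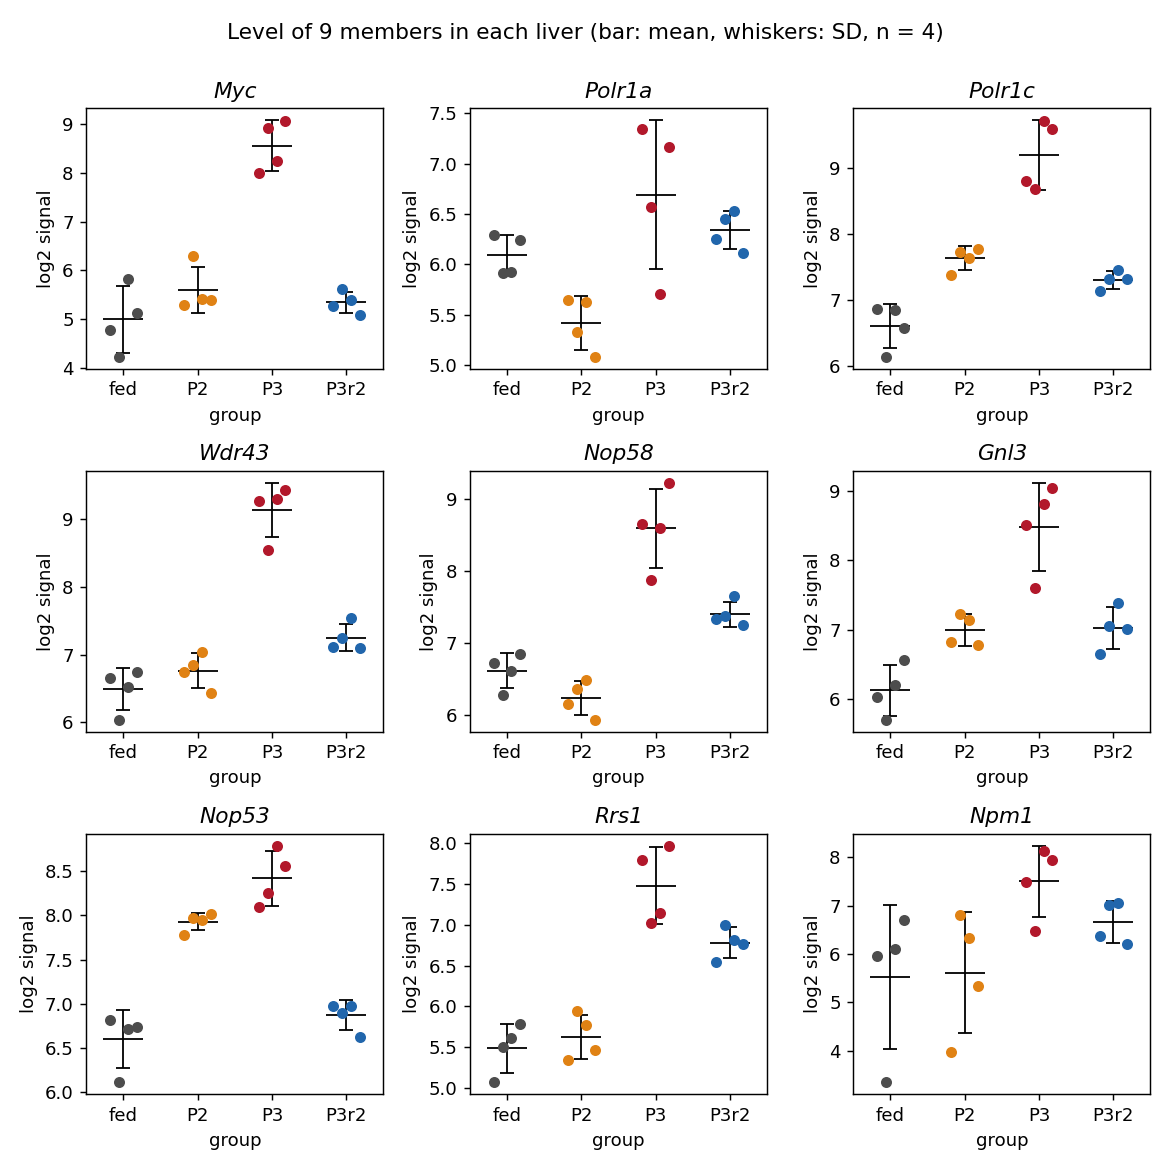
Log2 signal (vertical axis) of 9 genes in the 4 groups (horizontal axis), 1 point per liver, with the mean as a bar and the standard deviation as whiskers. Myc, Wdr43 and Nop58 are highest in P3, and all P2 livers lie above all fed livers for Polr1c, Gnl3 and Nop53. All re-fed livers lie above all fed livers for Polr1c, Wdr43, Nop58, Gnl3 and Rrs1, of which only Rrs1 was called, and Npm1 has 1 low fed and 1 low P2 liver.

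Factors of the small subunit processome and the U3 snoRNP rose nearly without exception. Of 15 measured, 14 were called higher at phase 3 against fed, with a median change of 1.46 over the 15, and all 15 were called higher than at phase 2. Wdr43, a WD-repeat protein of the processome, read 6.65, 6.04, 6.52 and 6.74 in fed livers, 6.74, 6.85, 7.04 and 6.43 at phase 2, 9.27, 8.54, 9.29 and 9.43 at phase 3 and 7.11, 7.24, 7.54 and 7.10 after re-feeding. The lowest P3 liver, at 8.54, lay above the highest of all the others, at 7.54 (P3 against fed 2.65 ± 0.20, adjusted p = 2.34e-07). Utp4, whose promoter is shown above, read 8.38, 7.54, 8.28 and 8.30 in fed livers and 10.03, 9.47, 10.24 and 10.15 at phase 3, a change of 1.85 ± 0.23 (adjusted p = 3.13e-05). Utp14a (2.16 ± 0.24), Utp18 (1.93 ± 0.25), Rrp9 (1.83 ± 0.18), a protein bound to U3 itself, and Utp25 (1.75 ± 0.24) followed.

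The other processome genes rose by less. Utp20 (1.49 ± 0.26), a long repeat protein, Utp3 (1.46 ± 0.20), Nol10 (1.43 ± 0.29) and Nop14 (1.23 ± 0.31) were called, as were Rrp7a (0.98 ± 0.15), Utp23 (0.98 ± 0.18), Nop9 (0.91 ± 0.14) and Noc4l (0.58 ± 0.13). Nol6 was the exception: it read 6.68, 6.07, 6.24 and 6.51 in fed livers, 5.63, 5.47, 5.99 and 4.99 at phase 2 and 7.30, 6.71, 6.37 and 6.97 at phase 3. All P2 livers lay below all fed livers, and the P3 livers overlapped with the fed ones. Nol6 fell at phase 2 (-0.85 ± 0.22, adjusted p = 0.0194), was not called at phase 3 (0.46 ± 0.22, adjusted p = 0.174), and was higher at P3 than at P2 (1.32 ± 0.22). The P2 call was lost without fed 1, fed 4 or P2 4 (highest adjusted p = 0.0672).

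Of 5 snoRNP genes 3 rose, and the other 2 were dim. Nop58, which with fibrillarin forms the core of the C/D snoRNPs that guide methylation, read 6.72, 6.28, 6.61 and 6.85 in fed livers, 6.16, 6.36, 6.49 and 5.94 at phase 2 and 8.65, 7.87, 8.60 and 9.22 at phase 3. The rise of 1.97 ± 0.22 (adjusted p = 1.02e-05) came with no overlap. Fbl, fibrillarin, the methyltransferase itself, read 6.21, 5.82, 6.65 and 6.90 in fed livers and 7.75, 7.32, 8.17 and 8.32 at phase 3, a rise of 1.50 ± 0.24 (adjusted p = 0.000263). Nolc1, a chaperone of snoRNPs that binds RNA polymerase I, rose by 1.61 ± 0.31 (adjusted p = 0.00124). Nop56 (-0.07 ± 0.14) and Nop10 (0.10 ± 0.24), the latter a protein of the H/ACA snoRNPs that make pseudouridine, were not called, and both rows were dim (at most 3.22 and 4.83 in any liver). For Nop56, partner of Nop58 in the same particle, the interval of the change at phase 3 ran from -0.38 to 0.25 (95% confidence).

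Of 14 genes of the large subunit, 12 rose at phase 3 by 1.05 to 2.38 and 1 fell. Nol8, a nucleolar protein needed for cell growth, read 4.44, 4.22, 4.20 and 4.61 in fed livers, 4.45, 4.49, 4.59 and 4.21 at phase 2 and 7.37, 6.28, 6.0 and 7.36 at phase 3. After re-feeding it read 4.58, 4.82, 4.99 and 4.65, so it was low in all livers but those of phase 3, and its rise of 2.38 ± 0.26 (adjusted p = 6.11e-06) was the fourth largest of the set. Gnl3, nucleostemin, a GTPase of the nucleolus, read 6.03, 5.71, 6.21 and 6.57 in fed livers, 6.83, 7.23, 7.14 and 6.78 at phase 2 and 8.50, 7.60, 8.81 and 9.03 at phase 3. It rose in steps, by 0.86 ± 0.26 at phase 2 (adjusted p = 0.0441) and by 2.35 ± 0.26 at phase 3 (adjusted p = 9.53e-06). The P2 call of Gnl3 was lost in 10 of 20 alternatives, among them leaving out any one of the fed or P2 livers except fed 4 (lowest change 0.73, highest adjusted p = 0.107), and the P3 call held in all 20.

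Rrs1, which brings the 5S RNA particle into the large subunit precursor, read 5.07, 5.50, 5.61 and 5.78 in fed livers, 7.79, 7.02, 7.15 and 7.97 at phase 3 and 6.54, 7.0, 6.81 and 6.77 after re-feeding. Fed, re-fed and P3 livers form ascending levels that do not overlap (P3 against fed 1.99 ± 0.21, adjusted p = 6.38e-06). Pes1, of the complex that processes the precursor of the large subunit's RNA, rose by 1.30 ± 0.13 (adjusted p = 2.3e-06). It had a narrow range in fed livers, 5.71 to 5.90, with all P3 livers at 6.89 or above. Among the others, Rrp1b rose by 1.57 ± 0.24, Rrp15 by 1.38 ± 0.20, Rrp1 by 1.36 ± 0.20, Nol9, an RNA 5′ kinase, by 1.33 ± 0.18, Nol12 by 1.30 ± 0.20, Rrp8, a methyltransferase of the large subunit's RNA, by 1.11 ± 0.19, and Noc2l by 1.05 ± 0.16.

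Nop53, which docks the RNA exosome onto the large subunit precursor, was like Polr1h already higher at phase 2. It read 6.82, 6.11, 6.71 and 6.74 in fed livers, 7.78, 7.97, 7.95 and 8.02 at phase 2, 8.09, 8.25, 8.79 and 8.56 at phase 3 and 6.98, 6.90, 6.98 and 6.62 after re-feeding. Most of its rise was there at phase 2 (1.34 ± 0.17, adjusted p = 0.000295), and the further step to P3 was not called (0.49 ± 0.17, adjusted p = 0.0504), though all P3 livers lay above all P2 livers and 5 of 20 alternatives, leaving out P3 1 among them, called it (lowest adjusted p = 0.0181). Nop53 was the largest rise of the set at phase 2.

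Nop2, a methyltransferase of the large subunit's RNA, was the 1 gene called lower. It read 2.67, 3.05, 5.34 and 3.17 in fed livers, 1.49, 1.65, 1.78 and 1.34 at phase 2 and 1.79, 2.15, 1.51 and 2.14 at phase 3. Its row had the lowest mean of the set over all arrays (2.36), and fed 3 stood more than 2 units above the other fed livers. The change of Nop2 was -2.00 ± 0.42 at phase 2 (adjusted p = 0.00738) and -1.66 ± 0.42 at phase 3 (adjusted p = 0.00971). Without fed 3 the changes were -1.40 (adjusted p = 0.00178) and -1.07 (adjusted p = 0.00277), and in a fit of fed and P3 alone the adjusted p was 0.0673. Nop16 (0.27 ± 0.12), also dim, was not called.

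The signals of the 2 abundant nucleolar proteins varied widely between arrays of the fed and fasted groups. After re-feeding their standard deviations were 0.15 (Ncl) and 0.43 (Npm1). With 1 liver on each array, animal and array cannot be told apart. Ncl, nucleolin, read 8.56, 7.18, 7.81 and 8.20 in fed livers, 7.29, 7.40, 7.59 and 5.46 at phase 2 and 9.84, 8.91, 8.44 and 9.70 at phase 3. P2 4 lay far below all others, and P3 3 within the fed range. Ncl was just called at phase 3 (1.29 ± 0.43, adjusted p = 0.0455), a call lost in 10 of 20 alternatives (among them leaving out fed 2, with 1.03 and adjusted p = 0.138, or any 1 of fed 3, fed 4, P3 1, P3 2 and P3 4), and it was called higher than at phase 2 (2.29 ± 0.43, adjusted p = 0.00102). Npm1, nucleophosmin, read 5.96, 3.35, 6.11 and 6.71 in fed livers, 3.97, 6.81, 6.33 and 5.34 at phase 2 and 7.48, 6.48, 8.12 and 7.94 at phase 3. Fed 2 and P2 1 lay more than 1 unit under the others of their groups, and Npm1 was not called (1.97 ± 0.67, adjusted p = 0.0521). Without fed 2 the change was 1.24 (adjusted p = 0.154). It was called in 6 of 20 alternatives, among them leaving out fed 4 or P3 2 (2.36 and 2.31). Npm1 has many near-identical pseudogenes, so its probes may read more than 1 locus.

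**Figure D3:**
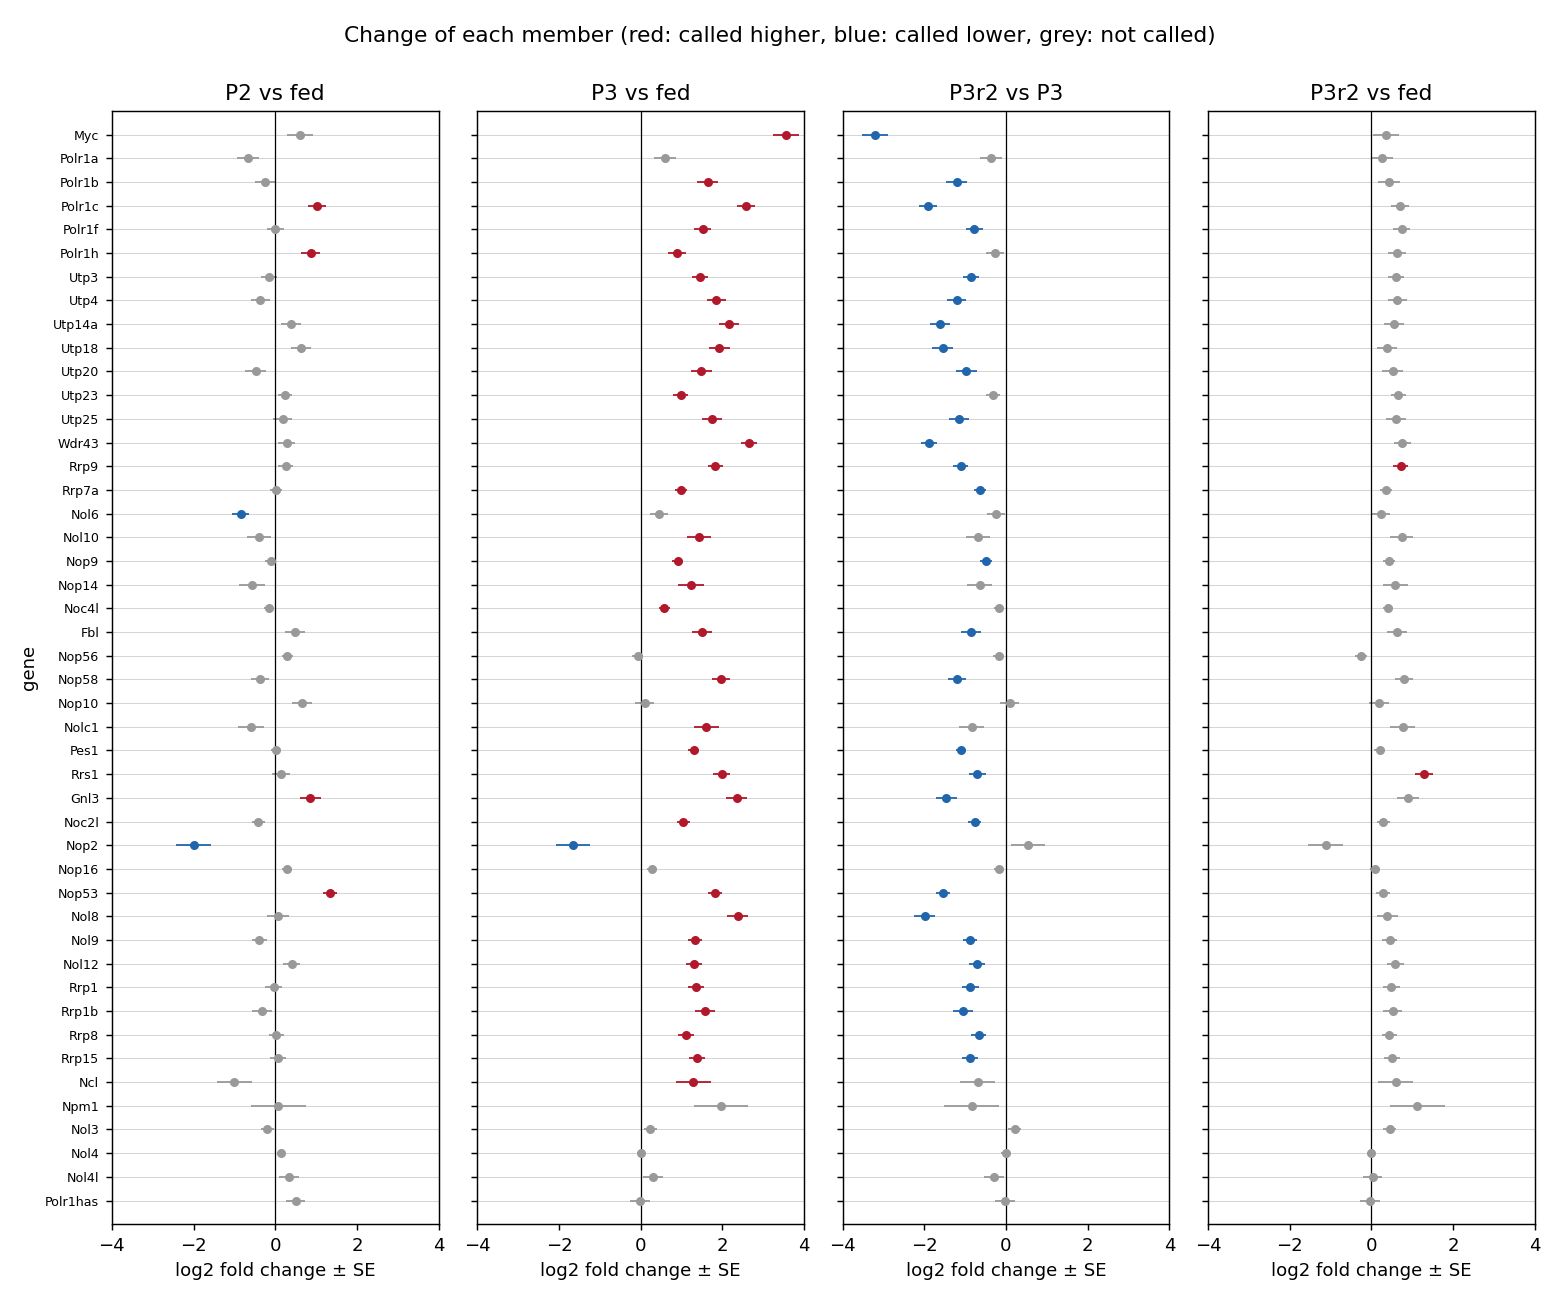
Log2 fold change (horizontal axis, points) with its standard error (lines) of each of the 46 genes (vertical axis) in 4 comparisons; red is called higher, blue called lower, grey not called. Points scatter around 0 at phase 2, lie right of 0 for nearly all genes at phase 3, turn left from P3 to P3r2, and remain mostly right of 0, but grey, in P3r2 against fed.

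At phase 2, the set as a whole stood near the fed level. Of the 46 genes 4 were called higher (Nop53, Polr1c, Polr1h and Gnl3) and 2 lower (Nop2 and Nol6), where 6.13% of all rows were called higher and 6.58% lower. These shares are near the background. The median change was 0.05, the same as over all rows, and it ranged from -2.00 to 1.34. All P2 livers lay above all fed livers in 7 genes and below them in 5, against 1935 and 1699 of 18884 rows. Without the 3 arrays of narrow spread 2 were called higher and 2 lower. Leaving out fed 1, fed 2, P2 2 or P2 4 left 2 higher, and leaving out fed 1, fed 4 or P2 4 left 1 lower.

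Between the phases, 35 of the 46 genes were called higher at P3 than at P2, against 13.5% of all rows, with a median change of 1.44 against -0.03. By limma 0 were called lower, against 8.53% of all rows (3 were lower at an unadjusted p below 0.05). The largest steps after Myc (2.96 ± 0.32) were those of Wdr43 (2.37 ± 0.20), Nop58 (2.35 ± 0.22), Nol8 (2.32 ± 0.26), Ncl and Utp4 (2.21 ± 0.23). This comparison shares the P3 livers with that against fed, so the 2 are not independent. Without the 3 arrays of narrow spread 35 were called higher.

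After 2 days of re-feeding, the set was lower than at phase 3. Of the 46 genes 28 were called lower, against 7.94% of all rows, and by limma 0 higher (also 0 at an unadjusted p below 0.05), against 10.5%. The median change was -0.81. The P3 livers are again those of the comparisons above. The largest falls after Myc were those of Nol8 (-1.99 ± 0.26, adjusted p = 3.83e-05), Polr1c (-1.90 ± 0.22, adjusted p = 1.52e-05), Wdr43 (-1.89 ± 0.20, adjusted p = 6.58e-06) and Utp14a (-1.61 ± 0.24, adjusted p = 0.000165). By role, 10 of 15 small subunit genes and 12 of 14 large subunit genes fell, and 3 of 5 polymerase subunits. Polr1a (-0.36 ± 0.27), Noc4l (-0.17 ± 0.13) and Utp23 (-0.32 ± 0.18) were among those not called. Without the 3 arrays of narrow spread 31 were called lower, and without P3 4 the count was 21.

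Most genes of the set were still somewhat above the fed level in the re-fed livers, but few passed the test. In 42 of 46 the mean was higher than in fed livers, against 10313 of 18884 rows, with a median change of 0.50 against 0.02 over all rows. Among genes with a mean signal above 5 over all arrays, P3 included, it was 37 of 37, against 5337 of 7743 rows as bright. Their median change was 0.55, against 0.14 over those rows. At an unadjusted p below 0.05, 26 were higher, against 2138 of 18884 rows. In 22 of the 46 all re-fed livers lay above all fed livers, against 1860 of 18884 rows. Rrs1 and Rrp9 were called higher, against 2.21% of all rows, and 0 lower by limma (1 at an unadjusted p below 0.05), against 0.514%. Rrs1 stood 1.29 ± 0.21 above fed (adjusted p = 0.0044), a call that held in all 20 alternatives (adjusted p 0.00035 to 0.0183). Rrp9 read 6.21, 5.72, 6.09 and 5.86 in fed livers and 6.62, 6.58, 6.83 and 6.73 after re-feeding, which do not overlap (0.72 ± 0.18, adjusted p = 0.0406), but its call was lost in 12 of 20 alternatives, among them leaving out any of the livers except fed 1 (lowest change 0.54, highest adjusted p = 0.216). Myc stood at 0.36 ± 0.32 (adjusted p = 0.747), with a 95% interval from -0.34 to 1.06. The number called was 11 with array weights, 6 over brighter rows and 1 without the 3 arrays of narrow spread, where the median change was 0.37. It was also 1 without fed 2, fed 3 or any 1 of the re-fed livers.

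Other genes of the pathway, from lists counted without the 46 genes, were also mostly higher at phase 3, where 11.3% of all rows were called higher. Of 23 other small subunit and early precursor factors 20 rose, among them Riok2 (2.34 ± 0.21), a kinase of late small subunit maturation, Nob1 (2.24 ± 0.22), the nuclease that makes the end of the small subunit's RNA, and Pwp2 (2.13 ± 0.20). Of 26 other large subunit factors 20 rose, among them Sdad1 (2.19 ± 0.28), Nmd3 (2.10 ± 0.20), the adaptor of nuclear export, and Ppan (2.02 ± 0.22). Of 13 nucleolar RNA helicases 10 rose, led by Ddx18 (1.46 ± 0.28). Medians were 1.23, 1.04 and 0.86, against 0.03 over all rows, and without the 3 arrays of narrow spread the counts were 19, 18 and 11. In snoRNP assembly 5 of 7 rose, led by Gar1 (1.77 ± 0.21), a protein of the H/ACA particle, and without the 3 arrays of narrow spread 4 rose and 1 fell.

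Genes around the polymerases are read against the same 11.3% of all rows called higher at phase 3 against fed and 13.5% at phase 3 against phase 2. Of 11 RNA polymerase I initiation and ribosomal DNA factors 4 rose and 1 fell against fed, and 8 were higher than at phase 2. Taf1d (3.16 ± 0.37), a subunit of the promoter selectivity factor, Rrn3 (1.90 ± 0.23), which makes the polymerase ready to initiate, and Mybbp1a (1.93 ± 0.27) rose, and Top2a (-1.51 ± 0.23), a topoisomerase of dividing cells, fell. Ubtf, the architectural factor of ribosomal DNA, stood at 0.20 ± 0.14 (adjusted p = 0.454). Of 10 genes of RNA polymerase III 4 rose against fed and 6 were higher than at phase 2, among the 4 Crcp (2.18 ± 0.25), a subunit, and Maf1 (1.69 ± 0.19), the repressor of that polymerase. Of 7 subunits of RNA polymerase II 3 rose at phase 3, while 5 rose and 1 fell at phase 2, against 6.13% and 6.58% of all rows. Of 7 exosome genes 4 rose, led by Exosc5 (1.41 ± 0.19). Without the 3 arrays of narrow spread the counts higher at phase 3 were 4, 5, 3 and 4 in the order given.

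Regulators of ribosome synthesis went both ways, where 11.3% of all rows were called higher and 8.07% lower. In the MYC network 4 of 15 rose and 1 fell: Nampt (1.92 ± 0.33), which makes an NAD precursor, and Odc1 (1.50 ± 0.18), ornithine decarboxylase, a known MYC target, rose, and Ccnd2 (-1.20 ± 0.25), cyclin D2, fell. Mnt, which competes with MYC for MAX, rose by 0.84 ± 0.15. Among 13 genes of TOR and insulin control 2 rose (15.4%, near the share of all rows) and 3 fell at phase 3: Ddit4, an inhibitor of TOR complex 1, rose by 4.37 ± 0.18, and Sgk1 (-1.45 ± 0.25), Mtor (-0.85 ± 0.23), the kinase itself, and Tsc2 (-0.84 ± 0.19), an inhibitor of it, fell. In the p53 pathway, which nucleolar stress is known to activate, 4 of 10 rose, among them Cdkn1a (2.40 ± 0.41), the inhibitor p21, Ccng1 (1.15 ± 0.33) and Mdm2 (0.76 ± 0.16), the ligase that degrades p53. Without the 3 arrays of narrow spread 5 rose and 1 fell in the MYC network, 2 rose and 3 fell in the TOR list, and 3 rose in the p53 list.

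**Figure D4:**
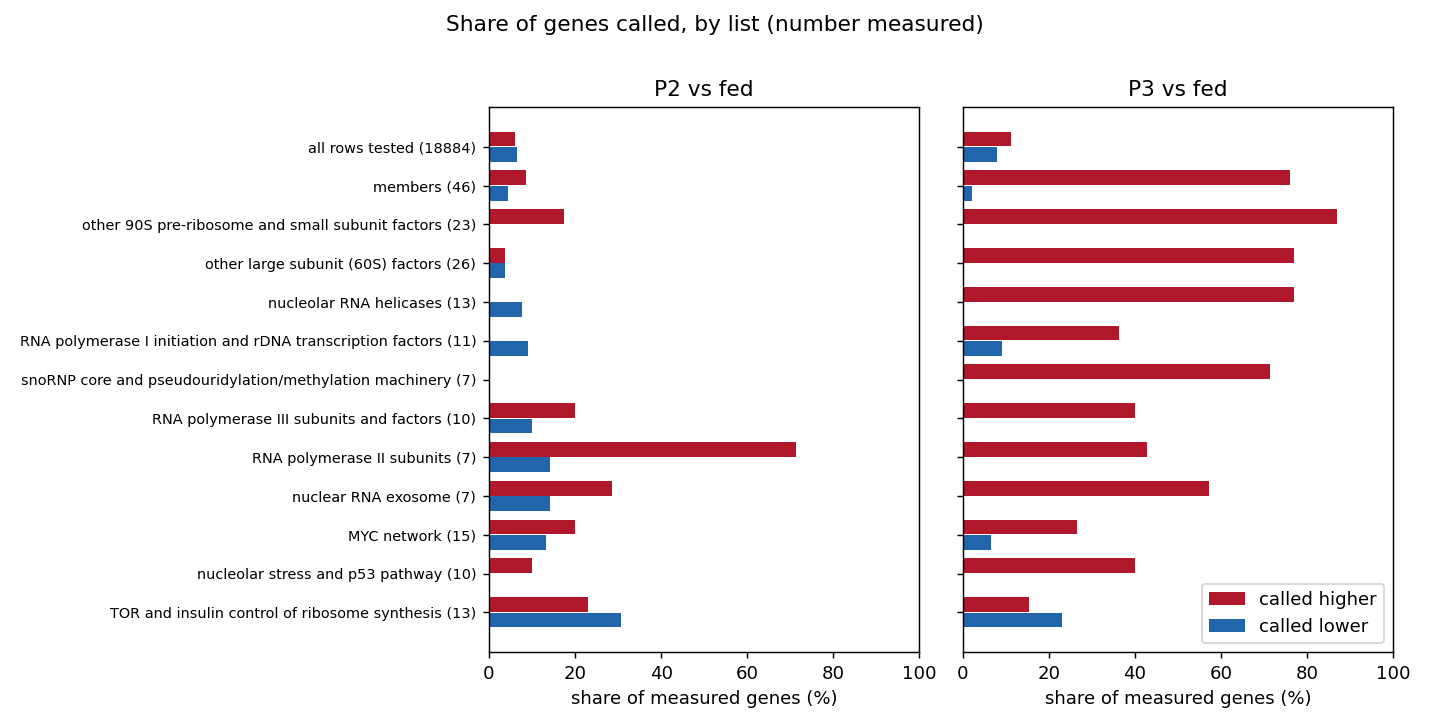
Share of measured genes called higher (red) and lower (blue), in percent, in all rows tested, in the 46 genes and in the 11 lists of related genes, with the number measured in brackets. At phase 2 (left) the 46 genes lie near the background of all rows, and at phase 3 (right) 35 of 46 are called higher against 11.3% of all rows.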

How the data were processed

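The authors' deposited table holds log2 signals of transcript clusters. The submitters' processing notes name GCOS 1.4 and Expression Console 1.1, and give neither the summarisation nor the background correction nor the genome build. That the scale is log2 was read off the size of the values. They were used as deposited.

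Of 19418 rows, 534 with identifiers below the annotated range were left out. Symbols come from the array's annotation, older names on lists from RefSeq (GRCr8). The brightest row stands for a gene. limma 3.58.1 in R 4.3.3 fitted 1 mean per group over all 16 arrays, with moderated two-sided tests of 5 comparisons and Benjamini-Hochberg adjustment over 18884 rows. The fit was tested on simulated data first. The comparisons P2, P3 and P3r2 against fed share the fed livers. Members and lists were chosen with earlier results of these data known. Members described most fully are the largest called changes without overlap and a fixed set by role. From other lists, up to 3 called genes with the largest P3 change are named, and Apoa2, Pcna, Top2a, Ubtf, Mnt and Tsc2 were added after their values were seen. Alternatives were other normalizations, eBayes options, array weights, a 2-group fit, brighter rows, gene means, threshold 0.01, a block for the replicate number, and leaving out single arrays. Leaving out the 3 arrays of narrow spread, a covariate for array spread and removal of a gene length trend were chosen after seeing the data. Figures were drawn with matplotlib 3.10.9.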

Additional observations from a re-analysis of the deposited data

Results flagged for a closer look

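In 12 of 184 combinations of a gene and a group, 1 liver stood apart from the other 3 by a gap above Dixon's 95% critical value, and chance gives about 1 in 20. In fed 2 the log2 signal was low for Utp4 (7.54, against 8.28 to 8.38 in the other 3), Utp14a (5.19, against 6.09 to 6.24 in the other 3), Nop53 (6.11, against 6.71 to 6.82 in the other 3) and Rrp1 (6.44, against 6.90 to 6.97 in the other 3). In P2 4 it was low for Utp4 (7.07, against 7.93 to 8.07 in the other 3), Nop14 (5.07, against 6.06 to 6.24 in the other 3), Rrp1 (6.15, against 6.93 to 7.04 in the other 3) and Ncl (5.46, against 7.29 to 7.59 in the other 3), and high for Nop56 (3.22, against 2.79 to 2.83 in the other 3). In P2 1 it was low for Utp18 (5.70, against 6.13 to 6.16 in the other 3) and Nol12 (5.35, against 6.13 to 6.26 in the other 3). In P2 2 it was high for Myc (6.30, against 5.29 to 5.42 in the other 3). Thus 9 of the 12 lie in fed 2 and P2 4, which have a narrow spread over all rows (standard deviations of 2.12 and 2.14). Fed 2 was the lowest of the fed livers in 34 of the 46 genes and P2 4 the lowest of the P2 livers in 27. Fed 2 lay below the mean of the other fed livers in 40 of the 46 genes and in 67.5% of all genes, and P2 4 below the other P2 livers in 33 of 46 and in 57.2%. P3 2 lay below the other P3 livers in 41 of 46 and in 52% of all genes, and P3 4 in 2 of 46 and in 40.8%. What sets these arrays apart was not tested.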

How the results depend on the processing

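The direction and size of the main counts held under every alternative run: the number called higher stayed within 1.5 times of 35 for P3 against fed and for P3 against P2, and the number called lower within 1.5 times of 28 for P3r2 against P3. Leaving out each array in turn gave 34 to 36 higher and 1 to 1 lower for P3 against fed, 35 to 37 higher and 0 lower for P3 against P2, and 21 to 30 lower and 0 higher for P3r2 against P3. For P2 against fed it gave 2 to 4 higher and 1 to 2 lower, and for P3r2 against fed 1 to 3 higher and 0 lower. The 1 gene lower in P3 against fed (Nop2) was 0 over brighter rows, where it is not tested, and 0 in the fit of the 2 groups alone. For P2 against fed, 4 genes were lower with array weights and 1 over brighter rows, 2 were higher without the 3 arrays of narrow spread, and at a threshold of 0.01 there were 2 higher and 1 lower. For P3r2 against fed, the number higher was 1 after quantile normalization, with trend and robust eBayes, without the 3 arrays of narrow spread, with a covariate for array spread and at 0.01. It was 4 where a gene's rows were averaged, 6 over brighter rows, 6 in the fit of the 2 groups alone and 11 with array weights. None of the 23 members chosen as the largest called changes without overlap or as the fixed set by role changed sign in a call. The genes of other lists were recounted only without the 3 arrays of narrow spread.

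The replicate number as a block changed little: 34 genes were higher and 1 lower for P3 against fed (without it 35 and 1), and the other counts were as without it, 4 and 2 for P2 against fed, 35 and 0 for P3 against P2, 0 and 28 for P3r2 against P3, and 2 and 0 for P3r2 against fed. Pairs of arrays of 1 number in different groups deviated from their group means with correlations from -0.40 to 0.26. For pairs of different numbers they ran from -0.31 to 0.31. No pairing by number was seen, but weak correlations cannot exclude one. The number of arrays, 4 per group, limits precision, and dim rows cannot show a change of a gene they barely detect.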
